A study of Homo sapiens with 6 samples.

Results

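PGRMC1, PGRMC2, NENF and CYB5D2 encode the membrane-associated progesterone receptor family, a small group of heme-binding proteins, and their transcripts were examined in SiHa cells with and without interference of CNN3. The 4 genes were taken by symbol from the 48162 Ensembl genes of the count table, and the family was chosen by the fall of PGRMC1 between the same samples, so the values below describe that fall and do not test it. Each symbol matched 1 gene, and all 4 passed the filter on low counts, as did 15860 genes in all. SiHa is an established human cervical cancer cell line. The cells received either si-CNN3, a single small interfering RNA (siRNA) against calponin 3 that the labels also call si-CNN3#1, or the control siRNA si-NC. Each group held 3 samples, whose RNA was collected at 48 h. Both groups therefore received a duplex and the transfection reagent, and no untransfected sample and no other siRNA against CNN3 was analysed here.

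The family shares a fold related to cytochrome b5, in which the protein holds a heme group. PGRMC1 sits in the membrane of the endoplasmic reticulum, where it is known for binding cytochromes P450, for links to sterol metabolism and for its part in the responses of cells to progesterone, although it is unrelated to the nuclear progesterone receptor. PGRMC2, its closest relative, is known as a carrier of heme out of the mitochondria towards the nucleus. NENF (neudesin) is a secreted protein with activity on neurons, and CYB5D2 (neuferricin) is a further heme-binding relative.

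PGRMC1 and PGRMC2 are shown side by side because the counts of these 2 paralogs went different ways, so it matters whether their reads could be told apart. The spliced coding stretches below are the most alike 90 bases of the principal transcripts in GENCODE release 29 on GRCh38, written 5′ to 3′ with the bases that differ in capitals. In PGRMC1 the stretch runs from exon 1 into exon 2 on the plus strand of chrX:119236661-119240367, and in PGRMC2 from exon 1 into exon 2 on the minus strand of chr4:128272459-128287403.
PGRMC1: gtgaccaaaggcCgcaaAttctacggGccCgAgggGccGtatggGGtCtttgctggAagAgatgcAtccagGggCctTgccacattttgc
PGRMC2: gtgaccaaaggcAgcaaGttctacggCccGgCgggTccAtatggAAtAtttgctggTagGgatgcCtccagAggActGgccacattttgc
Even here 16 of the 90 bases differed. Over the whole aligned coding sequence 67.8% of 571 aligned bases were identical, and the longest run shared by the 2 principal transcripts was 14 bases. No other pair among the 4 genes shared a run of more than 14 bases.

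The siRNAs themselves are shown because the comparison is between them. Their sense strands are given without the overhang, with the 7 bases that pair with bases 2 to 8 of the guide strand (the seed) in capitals; the guide was taken as the reverse complement.
si-CNN3#1: gcagaugggaaCCAACAAa
si-NC: uucuccgaacgUGUCACGu
The DNA letters of the si-CNN3#1 site, CCAACAA, were searched on the transcript strand in whole protein-coding transcripts, and 26.4% of the 12697 tested genes with such a transcript held them. Neither protein-coding transcript of PGRMC1 held the site, nor did that of NENF. PGRMC2 held it in 1 of 7 protein-coding transcripts and not in the principal one, and CYB5D2 held it in each of its 4. In the principal CYB5D2 transcript it lies in the coding part of exon 3, at chr17:4154764-4154770 on the plus strand, as aggcttggaggCCAACAAactacagctgca. The si-NC site, TGTCACG, was in no transcript of the 4 genes and in 8.0% of the same tested genes. A match describes letters only.

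Between 18147028 and 24976517 reads were counted per library, with the 3 si-NC libraries the deepest. CNN3, the targeted gene, had 1134, 1288 and 1234 counts in the si-NC samples and 490, 514 and 574 in the si-CNN3 samples, or 50.9% of the control level (log2 fold change -0.97, standard error 0.06). Among all tested genes, 1133 were called lower and 978 higher with si-CNN3 at an adjusted p of 0.05 or less (edgeR, quasi-likelihood test), a split that turned to 863 lower and 1294 higher when total counts alone were used for scaling. The 5 epithelial markers had a summed FPKM of 655 to 696 with si-NC and 585 to 622 with si-CNN3. KRT8 and KRT18, keratins of simple epithelium, were called lower, and KRT8 made up most of the sum (451 to 544 FPKM over all samples). The other epithelial markers, KRT19, EPCAM and CDH1, were not called (6.11 to 7.34, 4.9 to 6.75 and 19.4 to 21.8 FPKM over all samples). The 3 leukocyte, 2 endothelial and 3 fibroblast markers summed to at most 1.72, 0.402 and 5.23 FPKM in any sample. The part of the keratin difference in the results below was not tested. In these bulk samples, fewer cells that express a gene and less of its RNA per cell cannot be told apart.

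PGRMC1 (ENSG00000101856), the heme-binding partner of P450 enzymes, lies on the plus strand of chromosome X of GRCh38 from 119236245 to 119244466, in 3 exons of the principal transcript. It had 3655, 4605 and 4025 counts in si-NC replicates 1, 2 and 3, and 2549, 2518 and 2526 counts in si-CNN3 replicates 1, 2 and 3. After normalization (TMM, giving CPM, counts scaled to the same library total) these were 182, 185 and 187 CPM with si-NC and 135, 131 and 138 CPM with si-CNN3. Every si-CNN3 sample lay below every si-NC sample. The mean fell from 185 ± 2.24 to 135 ± 3.63 CPM (SD, n = 3 each), which left 73.0% of the control level (log2 fold change -0.45, standard error 0.03). Of the tested genes, 282 had a log2 fold change at or below that of PGRMC1, itself included, and 62 of these were called lower. No gene with a mean of at least 10 counts overlaps PGRMC1, PGRMC2 or NENF.

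PGRMC2 (ENSG00000164040), the paralog known for moving heme between compartments, lies on the minus strand of chromosome 4 from 128269237 to 128288829. Its counts were 1431, 1886 and 1544 counts with si-NC and 1531, 1526 and 1357 with si-CNN3, or 71.3, 75.8 and 71.6 CPM against 81.2, 79.5 and 74.3 CPM. The groups overlapped: si-CNN3 replicate 3 lay below si-NC replicate 2, while the other si-CNN3 samples lay above all controls. The mean was 72.9 ± 2.50 CPM with si-NC and 78.3 ± 3.57 CPM with si-CNN3 (SD, n = 3 each), a log2 fold change of 0.10 (standard error 0.04) in the direction opposite to PGRMC1. PGRMC2 was not called, but it was called higher in 4 of the 15 alternative settings, namely with total counts alone, with the replicate number as a block, without si-NC replicate 2 (log2 fold change 0.13) and without si-CNN3 replicate 3 (0.14).

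NENF (ENSG00000117691), the gene of the secreted factor neudesin, lies on the plus strand of chromosome 1 from 212432887 to 212446379. Its counts were 1242, 1465 and 1182 with si-NC and 1163, 998 and 1009 with si-CNN3. On the CPM scale these were 61.9, 58.9 and 54.8 against 61.7, 52.0 and 55.3, so the groups overlapped. NENF had the widest spread of the 4 genes among the si-CNN3 samples, a coefficient of variation of 8.77%, against 2.69% for PGRMC1. Its log2 fold change was -0.05 (standard error 0.05), and it was called in none of the alternative settings, over which the log2 fold change ran from -0.13 to 0.00. The pseudogenes NENFP1, NENFP2 and NENFP3 held at most 4 counts in any sample.

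CYB5D2 (ENSG00000167740), the gene of neuferricin, lies on the plus strand of chromosome 17 from 4143168 to 4187310 and was the least abundant of the 4. Its counts were 519, 738 and 564 counts with si-NC and 562, 594 and 570 with si-CNN3. Normalized, these were 25.9, 29.6 and 26.1 CPM against 29.8, 30.9 and 31.2 CPM. All si-CNN3 samples lay above all si-NC samples, but si-CNN3 replicate 1 and si-NC replicate 2 were almost level. The mean was 27.2 ± 2.11 CPM with si-NC and 30.7 ± 0.747 CPM with si-CNN3 (SD, n = 3 each), a log2 fold change of 0.17 (standard error 0.06). CYB5D2 was called higher, close to the threshold, and the call was lost in 10 of the 15 alternative settings. Among these were the fits without si-NC replicate 1 or 3 (log2 fold change 0.13 in each) and without si-CNN3 replicate 1, 2 or 3 (0.19, 0.16 and 0.15). ANKFY1, on the other strand, overlaps 23404 bases of CYB5D2 and had more counts (2146 to 3052 per sample, log2 fold change -0.05, adjusted p = 0.317, edgeR). Whether the counting used strand is not given in the sources used here.

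**Figure D1:**
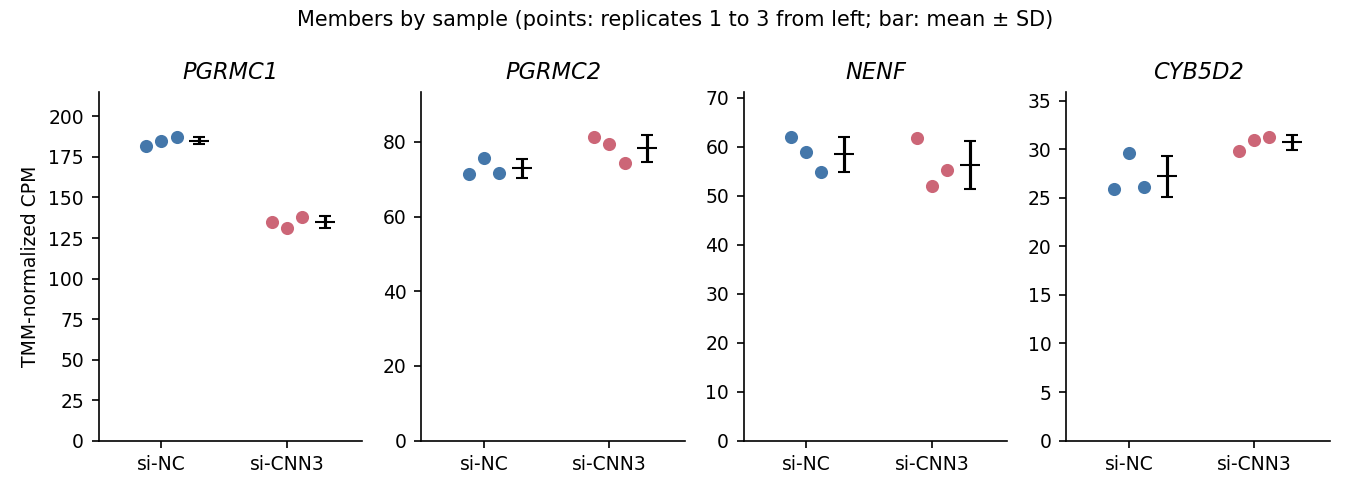
TMM-normalized CPM (vertical axis, from 0, own scale per gene) of PGRMC1, PGRMC2, NENF and CYB5D2 in the 3 si-NC and 3 si-CNN3 samples, with points for replicates 1 to 3 from left to right and a bar for the mean ± SD. The si-CNN3 samples of PGRMC1 sit at 131 to 138 CPM, below 182 to 187 CPM in the controls, while the groups of PGRMC2 and NENF overlap.

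Of the 4 genes, 1 was therefore called lower (PGRMC1) and 1 higher (CYB5D2), beside 7.14% and 6.17% of all tested genes. The same genes were those whose groups did not overlap, PGRMC1 lower and CYB5D2 higher, beside 14.3% and 13.9% of all tested genes. The family was picked on this contrast, so nothing is read from these counts. The other 3 genes had no such fall in their values. Set number against number, the difference in log2 CPM was -0.43, -0.50 and -0.43 for PGRMC1, 0.19, 0.07 and 0.05 for PGRMC2, -0.01, -0.18 and 0.01 for NENF, and 0.20, 0.06 and 0.26 for CYB5D2.

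Levels of different genes were compared per length, on the FPKM values that the authors deposited (fragments scaled by gene length and by the total of counted reads). These values rest on 1 length per gene, which the counts return as 1797 bases for PGRMC1, 1978 for PGRMC2, 780 for NENF and 1137 for CYB5D2. In the si-NC samples the order was PGRMC1 at 100, 103 and 103 FPKM, then NENF at 78.5, 75.2 and 69.7, PGRMC2 at 35.7, 38.2 and 35.9, and CYB5D2 at 22.5, 26.0 and 22.8. No neighbours in that order overlapped. With si-CNN3, PGRMC1 at 75.1, 73.6 and 77.5 FPKM overlapped NENF at 79.0, 67.2 and 71.3, so these neighbours no longer differed beyond their spread, while PGRMC2 (41.0, 40.5 and 37.8) and CYB5D2 (26.2, 27.5 and 27.6) kept their places. By its mean with si-NC, PGRMC1 stood above 90.8% of all tested genes, NENF above 86.8%, PGRMC2 above 73.4% and CYB5D2 above 63.9%.

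**Figure D2:**
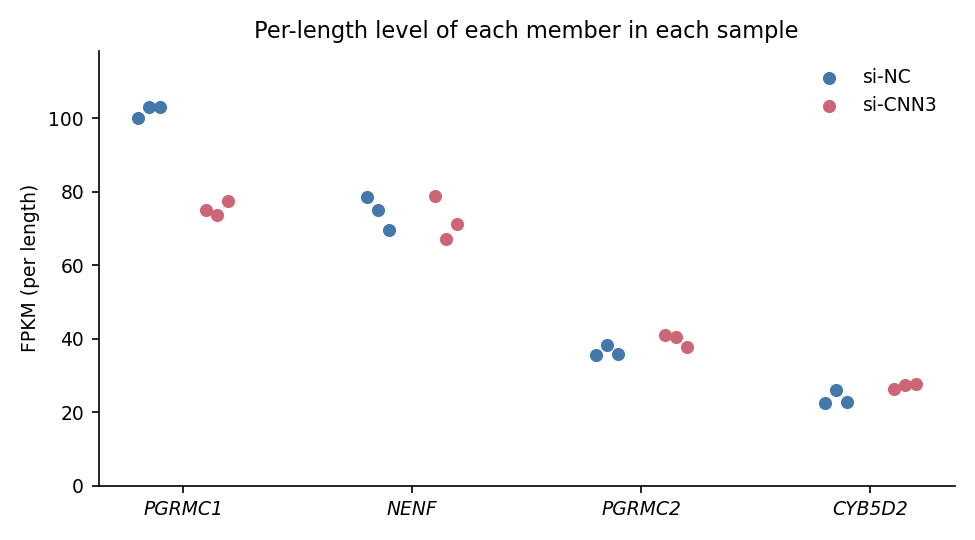
FPKM (vertical axis, from 0) of the 4 genes in each si-NC and si-CNN3 sample, with genes ordered by their control level and 1 point per sample. PGRMC1 stands clear of NENF in the controls and shares its range with si-CNN3.

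The ratio of PGRMC1 to PGRMC2 describes the balance of the 2 membrane-bound paralogs. On the FPKM scale it was 2.81, 2.69 and 2.87 in the si-NC samples and 1.83, 1.82 and 2.05 in the si-CNN3 samples. PGRMC1 thus stayed the more abundant paralog in every sample, by a smaller margin with si-CNN3. The sum of both was 139 ± 2.45 FPKM with si-NC and 115 ± 0.955 FPKM with si-CNN3 (SD, n = 3 each). PGRMC1 supplied 43.1% ± 1.24 of the summed FPKM of the 4 genes with si-NC and 35.1% ± 1.11 with si-CNN3 (SD, n = 3 each). The groups did not overlap in any of these 3 quantities. All of them contain PGRMC1, on which the family was chosen.

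The other genes of heme, cytochrome b5, P450 and progesterone biology were read from 6 lists of 90 genes, of which 71 were abundant enough to be tested. Of these 71, 12 (16.9%) were called lower and 5 (7.04%) higher with si-CNN3, beside 7.14% lower and 6.17% higher of all tested genes, and their median log2 fold change was -0.037, against 0.00226 over all tested genes. The counts depended on the scaling, on the tool and on single samples. Scaling by total counts alone gave 8 lower and 6 higher, beside 863 lower and 1294 higher of all tested genes. DESeq2 called 5 lower and 2 higher, beside 651 lower and 436 higher of the 12155 genes to which it gave an adjusted p. Limma on log2(FPKM + 1) or log2(FPKM + 0.1) called 2 and 2, beside 254 and 328 or 207 and 271 of 13979 genes. Limma without a filter called 0 and 2, beside 86 and 131 of 30502. Without si-NC replicate 3, 7 were called lower and 2 higher, beside 860 and 691 of 16143 genes. The higher calls numbered 3 without si-CNN3 replicate 1 (beside 753 of 16298 genes) and 2 without si-CNN3 replicate 3 (beside 768 of 16247).

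For heme synthesis, of 14 tested genes of the 15 listed, 2 (14.3%) were called higher and 2 (14.3%) lower, beside 6.17% and 7.14% of all tested genes, and the median log2 fold change was -0.02. With scaling by total counts alone, 0 were called lower and 2 higher, beside 863 and 1294 of all tested genes. DESeq2 and the 3 limma settings called 0 of the list in either direction, although ABCB6 had no adjusted p in DESeq2 or in the 2 filtered limma settings. FECH, the enzyme that inserts iron to make heme and a described binding partner of PGRMC1, was lower by a small amount, at 46.9 ± 0.383 against 51.7 ± 1.77 CPM (SD, n = 3 each; log2 fold change -0.14, adjusted p = 0.0307, edgeR). CPOX, which acts earlier in the pathway, had a log2 fold change of -0.12 (adjusted p = 0.0234, edgeR), and UROS, a further enzyme of porphyrin assembly, one of 0.14 (adjusted p = 0.0235, edgeR). ABCB6, a porphyrin transporter, had the largest value at 0.91 (standard error 0.31, adjusted p = 0.0368, edgeR), on 10, 26 and 11 counts with si-NC and 33, 18 and 24 with si-CNN3, and its groups overlapped. Each of these 4 calls was lost when single samples were left out. For FECH any sample other than si-NC replicate 2 did so (log2 fold change -0.14 to -0.11). For CPOX these were si-NC replicates 2 and 3 and si-CNN3 replicates 1 and 2 (-0.13 to -0.10), for UROS replicates 2 and 3 of both groups (0.11 to 0.14), and for ABCB6 replicates 1 and 3 of both groups (0.67 to 0.92). UROD, the most abundant gene of the list at 107 ± 4.11 FPKM with si-NC (SD, n = 3), was not called (log2 fold change -0.05, adjusted p = 0.406, edgeR).

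Among 14 genes of heme breakdown, export and sensing, all tested, 2 (14.3%) were called higher and 1 (7.14%) lower, beside 6.17% and 7.14% of all tested genes (median log2 fold change -0.02). NR1D1, a nuclear receptor that binds heme as its ligand and works in the circadian clock, had 345, 396 and 364 counts with si-NC and 439, 403 and 397 with si-CNN3, and its groups did not overlap. In CPM it rose from 16.7 ± 0.669 to 22.0 ± 1.17 (SD, n = 3 each; log2 fold change 0.40, adjusted p = 7.72e-06, edgeR). NR1D1 overlaps THRA on the other strand by 1081 bases, and THRA was called lower (log2 fold change -0.13). HMOX1, the inducible heme oxygenase, was higher by a log2 fold change of 0.17 (adjusted p = 0.0327, edgeR), a call lost without si-NC replicate 2 or 3 or si-CNN3 replicate 1 or 3 (0.10 to 0.18). FLVCR1, a heme exporter, was lower at 42.1 ± 2.75 against 47.6 ± 0.619 CPM (SD, n = 3 each; log2 fold change -0.18, adjusted p = 0.00788, edgeR) and not called without si-CNN3 replicate 3 (-0.14). DESeq2 and the 3 limma settings called neither HMOX1 nor FLVCR1, and all of them called NR1D1. BLVRB, a biliverdin reductase and the most abundant gene of the list, was not called (log2 fold change -0.07, adjusted p = 0.284, edgeR).

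The list of proteins with a cytochrome b5 domain and of their reductases leaves out the 4 family members. Of these, PGRMC1 was called lower and CYB5D2, close to the threshold, higher. In the list, 4 of 14 tested genes (28.6%) were called lower and 0 higher, beside 7.14% and 6.17% of all tested genes. The median log2 fold change of the 14 was -0.04, with 10 below 0. At an unadjusted p under 0.05, for which no share of all tested genes is given, edgeR placed 1 gene higher. At the adjusted threshold DESeq2 and limma called 0 higher. The lower calls fell to 2 with upper quartile or total-count scaling, to 1 (FADS2) with DESeq2 and with either filtered limma setting, and to 0 with limma without a filter. FADS2, a desaturase of polyunsaturated fatty acids, had 2801, 3664 and 3259 counts with si-NC and 2187, 2328 and 2124 with si-CNN3. In CPM it fell from 146 ± 5.84 to 118 ± 2.93 (SD, n = 3 each; log2 fold change -0.31, adjusted p = 1.15e-10, edgeR). SUOX, the sulfite oxidase of mitochondria, had a log2 fold change of -0.23 (adjusted p = 0.00446, edgeR), and CYB5D1, which carries the same domain as CYB5D2, one of -0.15 (adjusted p = 0.0393, edgeR). POR, the reductase that passes electrons to microsomal P450 enzymes, lay at the threshold (log2 fold change -0.09, adjusted p = 0.0495, edgeR). The CYB5D1 call was lost without si-NC replicate 3 or si-CNN3 replicate 1 or 2 (-0.16 to -0.11), and the POR call without any sample other than si-CNN3 replicate 1 (-0.10 to -0.06). CYB5B, the cytochrome b5 of the outer mitochondrial membrane and the most abundant gene of the list, had 219 ± 1.47 FPKM with si-NC and 220 ± 3.62 FPKM with si-CNN3 (SD, n = 3 each; log2 fold change of the counts -0.01, adjusted p = 0.832, edgeR). FADS2 shares 29694 bases with FADS1 on the other strand and CYB5D1 shares 4537 bases with NAA38 on the other strand, and FEN1 on the same strand overlaps FADS2 by 4265 bases. None of these neighbours was called.

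Of 32 microsomal cytochromes P450, the class of enzymes that PGRMC1 binds, 17 were tested, 3 (17.6%) were called lower and 1 (5.88%) higher, beside 7.14% and 6.17% of all tested genes (median log2 fold change -0.08). The lower calls numbered 2 with DESeq2, which lost CYP2U1, 1 (CYP26B1) with either filtered limma setting and 0 with limma without a filter, so the CYP1B1 call was lost in all 3 limma settings. CYP1A1, an enzyme induced through the aryl hydrocarbon receptor, had 158, 184 and 174 counts with si-NC and 262, 254 and 246 with si-CNN3, with every si-CNN3 sample above every control. It rose from 7.78 ± 0.347 to 13.5 ± 0.338 CPM (SD, n = 3 each; log2 fold change 0.80, standard error 0.09, adjusted p = 3.7e-10, edgeR). CYP1B1, a related enzyme and by far the most abundant P450 here at 540 ± 5.89 FPKM with si-NC (SD, n = 3), went the other way by a small amount (log2 fold change -0.13, adjusted p = 4.12e-05, edgeR). CYP26B1, which breaks down retinoic acid, was lower (log2 fold change -0.26, adjusted p = 0.00225, edgeR). CYP2U1, a fatty acid hydroxylase, had a log2 fold change of -0.34 (adjusted p = 0.034, edgeR), with groups that overlapped and a call that was lost without si-NC replicate 2 or 3 or si-CNN3 replicate 1 or 3 (-0.35 to -0.24).

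No progesterone receptor was called, whether nuclear or of the membrane progestin receptor (PAQR) family. Only 4 of the 6 listed were tested, beside 7.14% called lower and 6.17% higher of all tested genes, so nothing is read from the absence of calls. PGR, the nuclear receptor, had at most 1 count in any sample, and PAQR9 had 0 counts in all. PAQR7 (log2 fold change -0.06, adjusted p = 0.542, edgeR) was the most abundant of the list at 11.1 ± 0.915 FPKM with si-NC (SD, n = 3), against 102 ± 1.49 FPKM for PGRMC1 in the same samples. At an unadjusted p under 0.05, for which no share of all tested genes is given, edgeR placed 1 of the 4 lower and 0 higher. The lower gene was PAQR8, named after its values were seen (log2 fold change -0.37, adjusted p = 0.161, edgeR). At the adjusted threshold DESeq2 and limma called 0. Without si-NC replicate 2, PAQR8 alone of this list was called lower.

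Among 8 proteins described as partners of PGRMC1, 2 were called lower and 0 higher, beside 7.14% and 6.17% of all tested genes (median log2 fold change -0.01). DESeq2 called the same genes lower and the 3 limma settings called 0 lower. The higher count was also 0 with DESeq2 and limma. At an unadjusted p under 0.05, for which no share of all tested genes is given, edgeR again placed 0 higher. INSIG1, which holds the sterol sensor complex in the endoplasmic reticulum, was lower at 96.3 ± 3.76 against 108 ± 1.25 CPM (SD, n = 3 each; log2 fold change -0.16, adjusted p = 0.000478, edgeR). TMEM97, the sigma-2 receptor, which acts with PGRMC1 in the uptake of low-density lipoprotein, was lower at 97.6 ± 2.96 against 107 ± 1.28 CPM (log2 fold change -0.14, adjusted p = 0.00342, edgeR). SERBP1, an RNA-binding protein and the most abundant of the list, was not called (log2 fold change -0.02, adjusted p = 0.751, edgeR). The PGRMC1 difference of -0.45 was larger in size than that of any tested gene of this list. PGRMC1 was chosen for that fall, so nothing is read from this comparison.

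**Figure D3:**
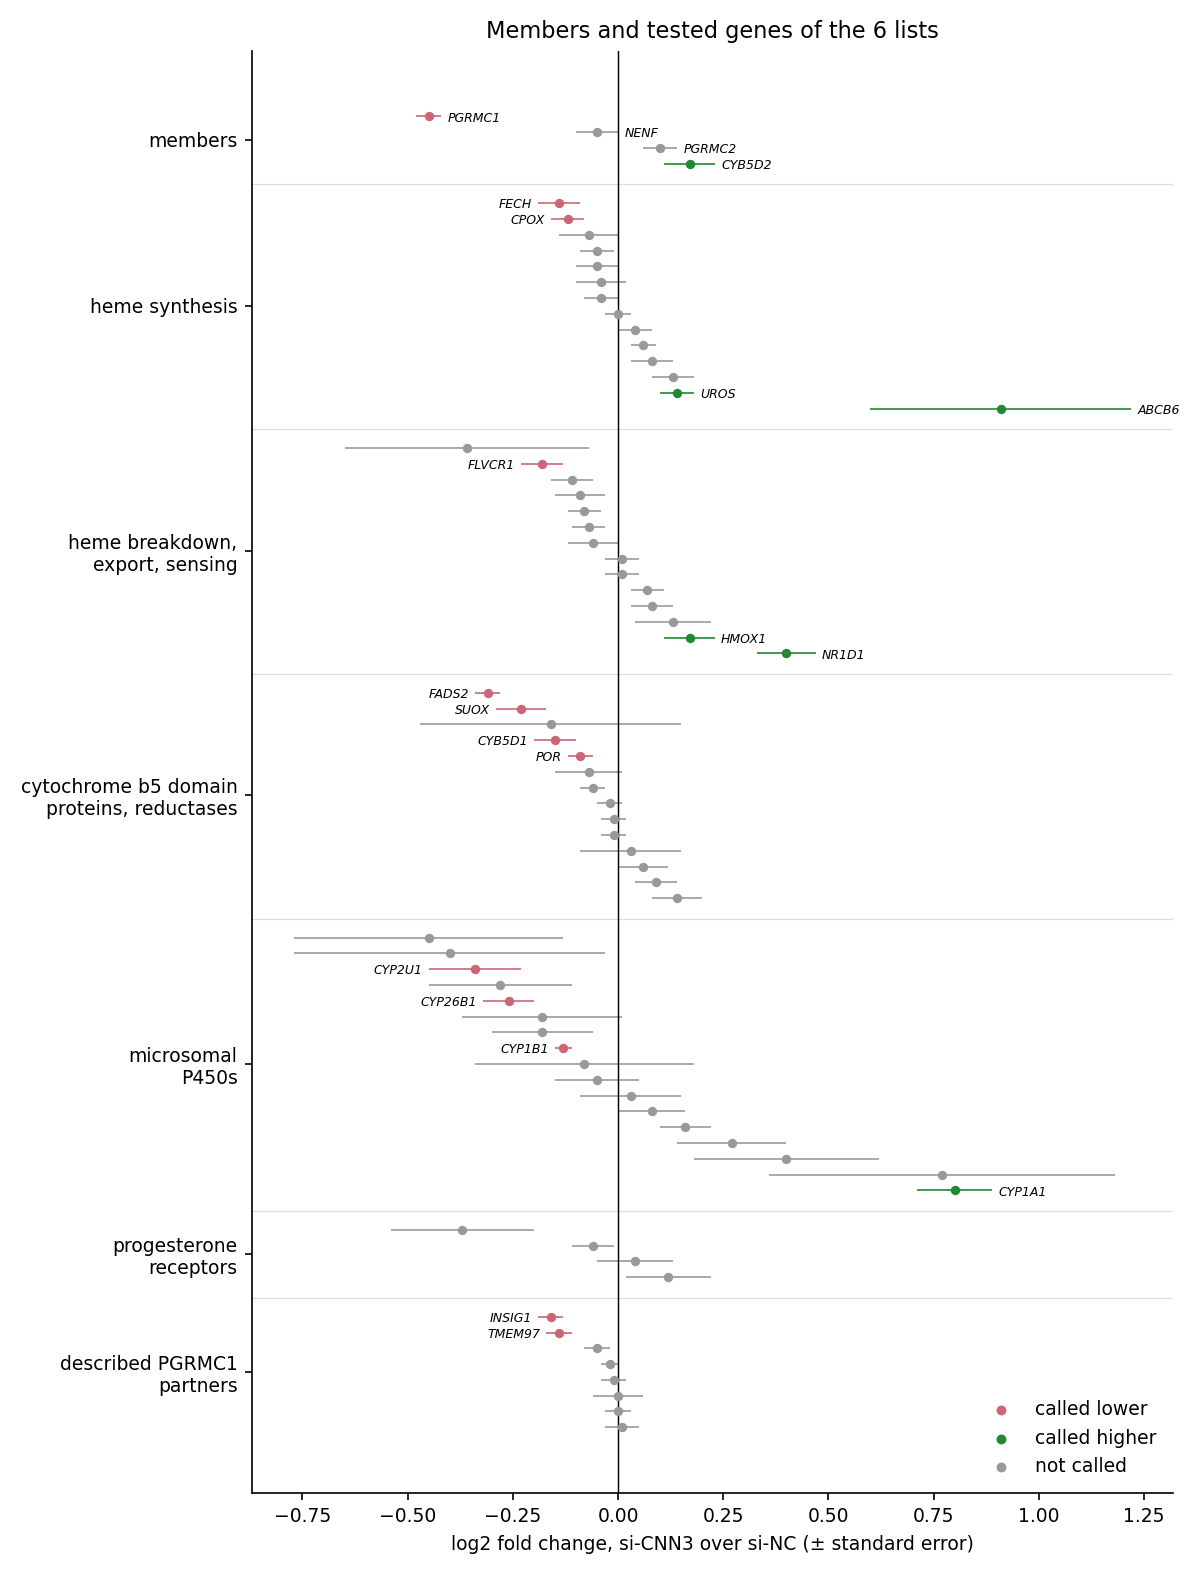
Log2 fold change of si-CNN3 over si-NC with its standard error (horizontal axis) for the 4 family members and the 71 tested genes of the 6 lists (rows), with genes called lower, called higher or not called in different colours. PGRMC1, on whose fall the family was chosen, lies at -0.45, left of every called gene of the lists. The lowest tested P450 gene, which was not called, also had -0.45. The called genes furthest to the right are ABCB6 at 0.91 and CYP1A1 at 0.80.

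The genes most like PGRMC1 over the 6 samples were named by the distance between their log2 CPM profiles, each centred on its own mean, among 9794 other tested genes with a mean of at least 10 CPM. The 5 nearest were TBC1D13, ZMPSTE24, DUSP1, MPZL2 and TMEM30A, with root mean square distances of 0.0267 to 0.0336 log2 units. TBC1D13, a Rab GTPase-activating protein, had 71.5, 74.3 and 73.0 CPM with si-NC and 51.3, 51.3 and 52.9 CPM with si-CNN3. ZMPSTE24, the protease that matures lamin A, had 108, 112 and 115 CPM against 81.0, 82.5 and 84.0 CPM. DUSP1, a phosphatase of MAP kinases, had 71.6, 74.6 and 72.1 CPM against 54.7, 50.6 and 53.3 CPM. Like PGRMC1, all 5 were high in the 3 si-NC samples and low in the 3 si-CNN3 samples, with log2 fold changes between -0.49 and -0.43. That likeness in direction and size follows from how the 5 genes were picked and is not a result about them. The family members were not among the near profiles: NENF ranked 3592, PGRMC2 8458 and CYB5D2 9326 of 9794, at distances of 0.217, 0.285 and 0.320 around a median of 0.232. These distances describe 6 samples that fall into 2 groups.

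**Figure D4:**
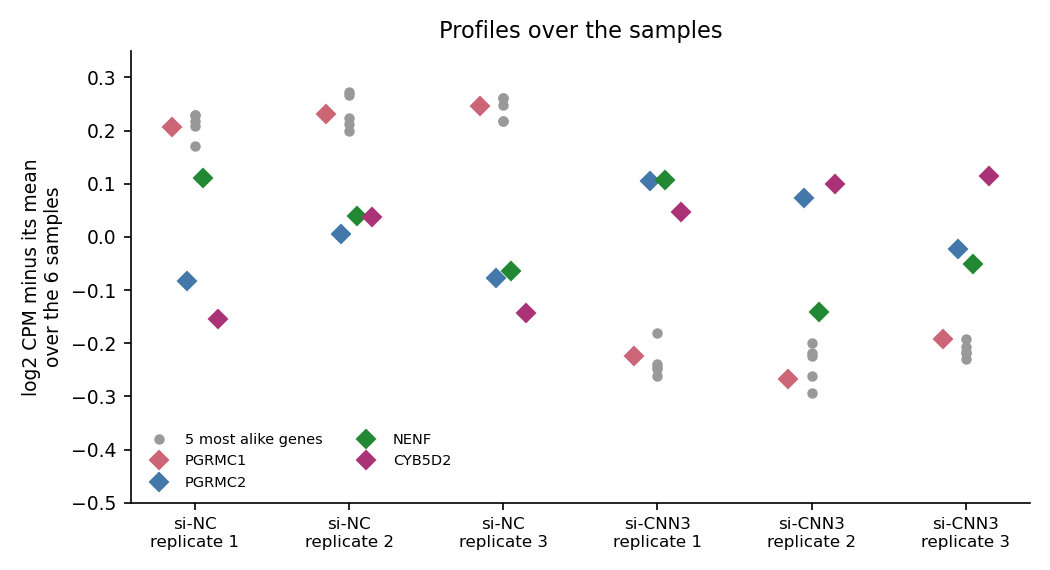
Log2 CPM minus its mean over the 6 samples (vertical axis) in each sample (horizontal axis) for the 4 family members (diamonds) and the 5 genes with the profile most like that of PGRMC1 (grey points). PGRMC1 and the 5 genes lie above 0 in the si-NC samples and below 0 in the si-CNN3 samples, while PGRMC2, NENF and CYB5D2 stay closer to 0.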

How the data were processed

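RNA from 3 si-NC and 3 si-CNN3 samples of SiHa cells, described as 3 independent assays per group, was sequenced on Illumina instruments. The authors aligned the reads with TopHat2 (2.0.9, with Bowtie2 2.0.6, per the submitters' processing notes, which also name HTSeq) and deposited raw counts per Ensembl gene. The authors also deposited FPKM values, which divide the same counts by gene length and column total. The genome build, annotation, strand setting and handling of multiply matching reads are not given in the sources used here. Names and positions came from GENCODE release 29 (GRCh38), which holds 45342 of 48162 identifiers.

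Counts were compared with edgeR 4.0.16 in R 4.3.3 (TMM, filterByExpr, quasi-likelihood test, condition only), with Benjamini-Hochberg adjustment over all tested genes. Standard errors are the absolute log2 fold change over the square root of F. No p is given for the 4 members. The members and lists were chosen with earlier results of these data known. Named are the members, CNN3, all called genes of each list (at most 4, by absolute log2 fold change) and its gene of highest mean FPKM, and the 5 genes with the log2 CPM profile nearest to PGRMC1. The coding sequences were aligned with Biopython 1.88. The alternatives were RLE, upper quartile or total-count scaling, DESeq2 1.42.0, no filter, the replicate number as a block, each sample left out, and limma 3.58.1 on the FPKM values after adding 1 or 0.1 and taking log2 (genes with a mean FPKM of 1 or more; also unfiltered after adding 1). Pairs of samples within a group had a chi-square of 1.56 to 1.98 per degree of freedom, above sampling noise, and none were merged. The edgeR estimate of variation between replicates beyond counting noise (common biological coefficient of variation) was 0.0232. The p-values set differences against the spread between these replicates only, and a log2 fold change as small as -0.09 (POR) was called.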

Additional observations from a re-analysis of the deposited data

How the results depend on the processing

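The log2 fold changes of PGRMC1 (-0.47 to -0.43), PGRMC2 (0.08 to 0.14), NENF (-0.13 to 0.00) and CYB5D2 (0.13 to 0.24) moved by less than the spread within groups in all 15 alternatives, and PGRMC1 was called lower in each. The family was chosen by that fall in these same samples, so the repeated PGRMC1 call is not a test of it. The number of genes called did move. DESeq2 called 436 higher and 651 lower, and 2 and 5 of the list genes. Limma on log2(FPKM + 1) called 328 higher and 254 lower (list genes 2 and 2), on log2(FPKM + 0.1) 271 and 207 (2 and 2), and on log2(FPKM + 1) without a filter 131 and 86 (2 and 0). With a sample left out, 2 to 4 list genes were called higher and 7 to 10 lower, beside 691 to 812 higher and 855 to 958 lower of all tested genes. Total counts alone gave 1294 higher and 863 lower (list genes 6 and 8). The cause of these differences was not tested. With the replicate number as a block, 1272 genes were called higher and 1455 lower, and the PGRMC1 value was -0.453. Same-numbered samples correlated at 0.0105 to 0.0329 after removal of group means, so the numbers were not treated as pairs, although each sample correlated best with its own number. Of the 17 list genes called, 2 (NR1D1 and CYP1A1) were called in every alternative, and 9 calls were lost when some single sample was left out. A log2(FPKM + 1) scale understates changes of low genes, and depth limits genes with few counts, such as ABCB6.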
